A study of Mus musculus with 2 samples.

Results

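The 10 genes described encode secreted proteins of the transforming growth factor beta (TGF-beta) superfamily system: the TGF-beta ligands Tgfb1, Tgfb2 and Tgfb3, the activin subunits Inhba and Inhbb, the bone morphogenetic proteins Bmp2, Bmp4 and Bmp6, the distant family member Gdf15, and follistatin (Fst), a binding protein rather than a ligand. They were chosen by name, and all 10 were found among the 16390 genes that the probe annotation names, each with 1 probe. Expression was compared between bone marrow stromal cells of irradiated and unirradiated C57BL/6 mice. Irradiated mice had received total body irradiation (TBI) of 9.5 Gy, and cells were taken 1 or 3 days later; 6 mice are given for the series, without saying how they were divided or pooled. Each time point had 1 array of 2 channels, with irradiated RNA in Cy3 and unirradiated RNA in Cy5, so no value has a replicate error and no p-value is given. How stromal cells were separated from the rest of the marrow, and the age and sex of the mice, are not given in the sources used here.

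All values are log2 ratios of the channels with the median gene of each array at 0, and a gene was called higher or lower at a size of at least 1, that is 2-fold. Base 2 is assumed, since the sources used here do not name the base. Nor do they name the numerator. Taken by themselves, the titles and the order of the channels would put unirradiated RNA on top. Positive values are read here as higher in irradiated RNA. This is the likely direction, resting on known targets of p53, the DNA damage response factor: the 20 measured at day 1 had a median of 1.57, and the 21 measured at day 3 one of 1.12. For mitotic genes the medians were 0.89 (19 measured) and -3.10 (15 measured), and the reading does not rest on them. Gdf15, itself a p53 target, was not used for this reading. The p53 and mitotic lists are no evidence of their own direction, and with the other direction every "higher" and "lower" below changes places. Dyes were not swapped in the arrays used here, and a probe with a dye bias would carry it at both times.

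TGF-beta superfamily ligands are dimers that bring together type I and type II receptor kinases at the cell surface, which phosphorylate Smad proteins that enter the nucleus and act on transcription. TGF-beta and activin ligands act mainly through Smad2 and Smad3, and BMP ligands through Smad1, Smad5 and Smad9, with Smad4 as the shared partner. TGF-beta is secreted in a latent form and must be released from its propeptide, while follistatin and related proteins hold activins and some BMPs away from their receptors. In bone marrow, TGF-beta is known for restraining the cycling of haematopoietic stem cells, and BMPs for driving osteoblast formation.

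Follistatin was at least 2-fold higher in irradiated RNA at both times, and the activin A subunit gene at day 1. Inhba and Fst were the 2 of 8 measured genes at or above 2-fold in irradiated RNA at day 1, and none was lower by as much; on that array 19.6% of all named genes were higher by this rule and 11.1% lower. At day 3, 1 of 9 genes, Fst, was higher and again none was lower, against 7.35% higher and 6.85% lower among all named genes. Counts of this size are near the shares for each array as a whole. At a 1.5-fold rule, 1 of 8 genes (Tgfb3) was lower at day 1, where 24.3% of named genes were, and 4 of 9 were higher at day 3, where 17.9% were. At a 4-fold rule none was higher at day 1, where 7.7% were, and Fst was higher at day 3, where 0.824% were. Inhba, at 3.91-fold, was just under that rule at day 1 and passed it when the ribosomal protein genes set the zero. The median over the genes with a ratio was -0.25 at day 1 and 0.34 at day 3, and that of day 1 was 0.25 when the ribosomal protein genes set the zero.

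**Figure D1:**
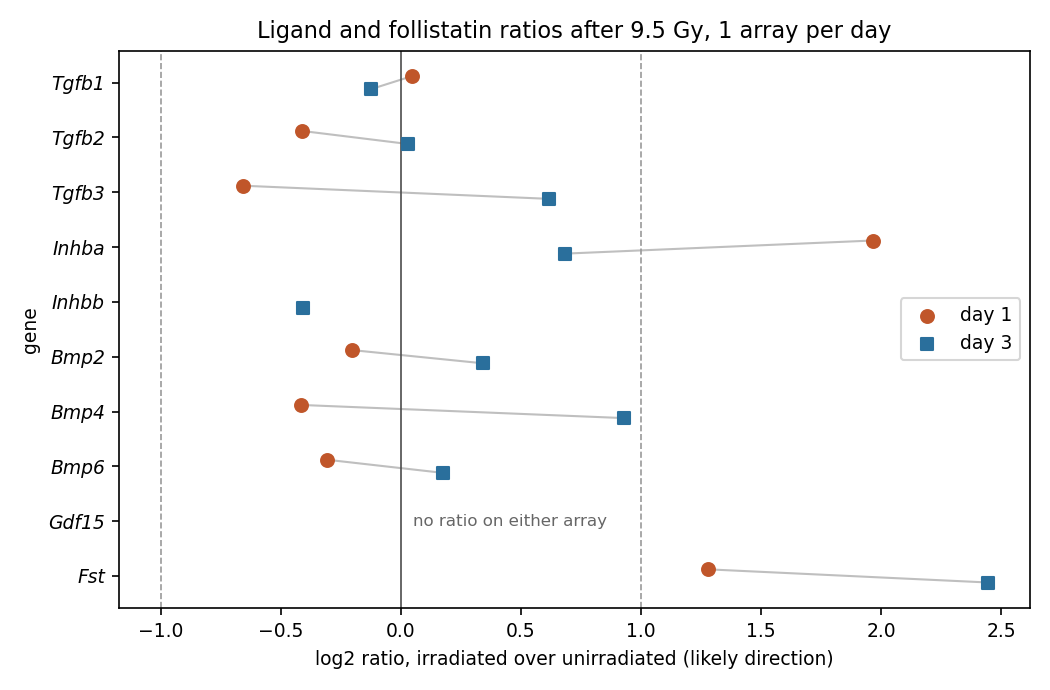
Log2 ratio of irradiated over unirradiated RNA (horizontal axis, likely direction) for each of the 10 genes (vertical axis), with circles for day 1, squares for day 3 and 1 array per day; dashed lines mark 2-fold. Fst lies right of the 2-fold line at both times, Inhba only at day 1, and the other genes with a ratio lie within 2-fold.

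The stretch before the transcription start is shown for 3 genes: Inhba, which had the highest ratio of the 10 at day 1, Bmp4, which had the largest difference between the times, and Tgfb1, which had the smallest root mean square ratio over both arrays. The sequences are from RefSeq (GRCm38.p6), 250 bases ending just before the annotated start, and windows were given for 7 of the 10 genes, all but Tgfb3, Bmp2 and Fst. Capitals mark matches, on either strand, to any of 5 motifs: the TATA box (TATAAA), the AP-1 site (TGANTCA), the cAMP response element (TGACGTCA), the SMAD box (CAGAC) and the GC box (GGGCGG). No matches overlapped in these windows.
Inhba (chr13:16011601-16011850, plus strand): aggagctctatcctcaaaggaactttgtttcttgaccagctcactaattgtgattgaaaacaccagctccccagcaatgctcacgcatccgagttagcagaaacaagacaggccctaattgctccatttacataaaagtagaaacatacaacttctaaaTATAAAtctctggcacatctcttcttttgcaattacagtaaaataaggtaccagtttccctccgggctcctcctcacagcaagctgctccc
Bmp4 (chr14:46390670-46390919, minus strand): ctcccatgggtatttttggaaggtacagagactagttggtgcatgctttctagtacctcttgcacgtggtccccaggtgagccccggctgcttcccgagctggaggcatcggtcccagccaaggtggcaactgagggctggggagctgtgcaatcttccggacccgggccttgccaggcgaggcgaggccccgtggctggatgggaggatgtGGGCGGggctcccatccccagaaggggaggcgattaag
Tgfb1 (chr7:25686752-25687001, plus strand): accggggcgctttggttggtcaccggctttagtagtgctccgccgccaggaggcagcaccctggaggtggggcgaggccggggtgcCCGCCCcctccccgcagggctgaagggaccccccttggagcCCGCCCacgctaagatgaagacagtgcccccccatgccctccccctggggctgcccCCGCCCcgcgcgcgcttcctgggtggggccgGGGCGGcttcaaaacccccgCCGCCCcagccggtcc

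The Inhba window held 1 match, a TATA box at -91 to -86 from the start, and was 43.2% G or C. The Bmp4 window held 1 GC box at -38 to -33 and was 63.2% G or C. The Tgfb1 window, 75.2% G or C, held 5 GC boxes and no TATA box. Among the other ligands, Tgfb2 had a TATA box at -31 to -26 and 2 SMAD boxes, Bmp6 had 1 SMAD box and 1 GC box, Inhbb had 1 GC box, and each of the 2 Gdf15 windows had 1 SMAD box. No window of these 7 genes held an AP-1 site or a cAMP response element. Of all 32851 windows of this length, 12.4% held a TATA box, 32.7% a GC box, 42.2% a SMAD box, 6.75% an AP-1 site and 1.55% a cAMP response element. A match is only a run of letters and says nothing about binding.

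Inhba encodes the beta A subunit, which as a dimer forms activin A, a ligand made by stromal cells and macrophages. Its ratio was 1.97 at day 1, or 3.91-fold higher in irradiated RNA, and 0.68 at day 3, or 1.60-fold. Only the first is past 2-fold. Among genes with a ratio, Inhba ranked 824th from the top of 10434 at day 1 and 1676th of 11404 at day 3, the 92.1st and 85.3rd percentile. It was the highest of the ligands on the first array and behind Bmp4 on the second. Inhbb, the subunit of activin B, had no ratio at day 1 and a ratio of -0.41 at day 3, within 2-fold. Inha, the alpha subunit that turns a beta subunit into an inhibin, was at -0.24 at day 1 and 0.77 at day 3, or 1.29 at day 3 with ribosomal protein genes at 0.

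Fst binds activin nearly irreversibly and blocks its receptor contacts. It stood at 1.28 at day 1, or 2.43-fold higher in irradiated RNA, and at 2.45 at day 3, or 5.45-fold. At day 3 it ranked 27th from the top of 11404 genes, the 99.8th percentile, compared with 1568th of 10434 at day 1, the 85.0th percentile. At day 1, 30.7% of named genes with a ratio were outside 2-fold, and at day 3, 14.2% were, so a given ratio lies further out at day 3. Fst was above Inhba at day 3 and below it at day 1. By distance over both arrays, the 3 named genes nearest to Fst were Fabp4 (1.17 at day 1 and 2.44 at day 3, distance 0.11), Gpihbp1 (1.27 and 2.33, distance 0.12) and Rgs5 (1.24 and 2.59, distance 0.15). Fabp4 is a fatty acid binding protein of adipocytes and capillary endothelium, Gpihbp1 anchors lipoprotein lipase on capillary endothelium, and Rgs5 is a pericyte gene. With 2 arrays, such likeness describes 2 values and no more.

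**Figure D2:**
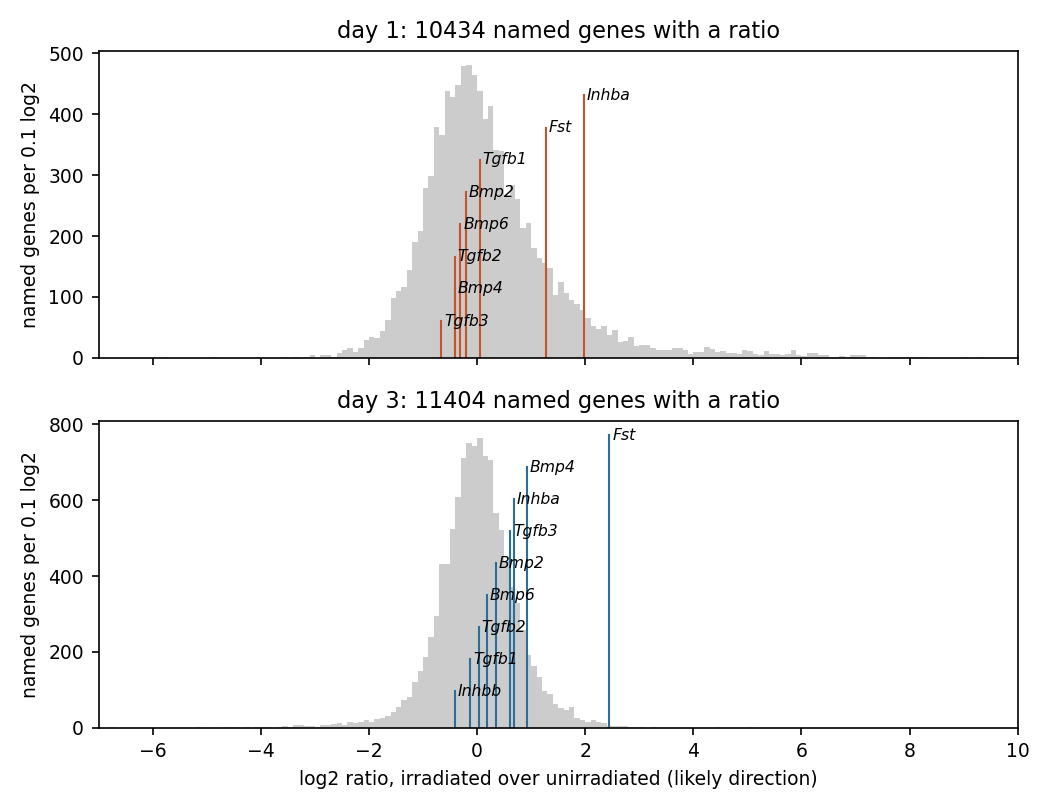
Number of named genes per 0.1 of log2 ratio (grey bars; horizontal axis, irradiated over unirradiated, likely direction) at day 1, above, and day 3, below, with a line at the ratio of each of the genes measured; line height has no meaning. Inhba and Fst lie in the upper flank at day 1, and Fst lies in the far upper tail at day 3, where 0.824% of named genes were at least 4-fold higher.

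The 3 TGF-beta ligands were within 2-fold at both times. Tgfb1, the main isoform of blood cells and platelets, was at 0.05 at day 1 and -0.13 at day 3, the smallest root mean square of the 8 genes with both ratios, though Tgfb2 was nearer to 0 at day 3. With ribosomal protein genes at 0, Tgfb1 was at 0.56 at day 1, where Bmp4, Tgfb2, Tgfb3, Bmp6 and Bmp2 were nearer to 0. Tgfb2 was at -0.41 at day 1 and 0.03 at day 3. Tgfb3 was at -0.66 at day 1, the lowest value of the set on that array, and at 0.62 at day 3. Expressed as folds, Tgfb3 was 1.58-fold lower in irradiated RNA at day 1 and 1.53-fold higher at day 3. Tgfb3 was lowest of the 3 at day 1 and highest of the 3 at day 3, and Tgfb1 the reverse.

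Markers of blood cells, which make Tgfb1, were measured on the same arrays. The median of pan-leukocyte genes was 5.09 at day 1 (17 of 17 past 2-fold upward, range 2.08 to 8.17) and -0.33 at day 3 (none of 12 upward and 4 downward, range -3.09 to 0.93). Platelet and megakaryocyte genes went both ways. Their median was 0.69 over 6 genes at day 1 (2 past 2-fold upward and 1 downward, range -2.01 to 3.92). At day 3 it was -1.04 over 5 genes (1 upward and 3 downward, range -1.39 to 1.48). Of all named genes, 19.6% were past 2-fold upward and 11.1% downward at day 1, and 7.35% and 6.85% at day 3. In bulk RNA of this kind, fewer cells of a type and less RNA per cell cannot be told apart. The part of these cells in the ligand ratios was not tested.

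The 3 BMP ligands were all slightly below 0 at day 1 and above 0 at day 3, within 2-fold throughout; the day 1 signs turned when ribosomal protein genes were set to 0. Bmp2, an inducer of osteoblast differentiation, was at -0.20 at day 1 and 0.34 at day 3. Bmp4, made by stromal and endothelial cells, was at -0.42 at day 1 and 0.93 at day 3, which is 1.90-fold higher in irradiated RNA and just short of the threshold. Bmp6, which induces hepcidin in the liver and is made by endothelial cells there, was at -0.31 at day 1 and 0.18 at day 3. Bmp4 stood at the 91.6th percentile of named genes at day 3 and at the 31.4th at day 1. Osteoblast genes, on the same arrays, had medians of -1.14 over 9 genes and -0.36 over 10 genes. Col1a1, given below as a TGF-beta target, is also in the osteoblast list, and its value was that day 1 median. Endothelial genes had medians of 0.35 over 13 genes and 1.57 over 14 genes. At day 3, 13 of these 14 genes were past 2-fold upward and 1 downward, against 7.35% and 6.85% of named genes. Their part in the Bmp4 and Bmp6 values was not tested.

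Gdf15, a stress-induced cytokine that acts on the hindbrain receptor Gfral, had a probe and no ratio at either time. Nothing can be said of its response here.

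Between the times, 3 of the 8 genes with both ratios were higher by 2-fold or more at day 3 than at day 1, and 1 was lower. Of the 9800 named genes with both ratios, 12.1% were higher by this rule and 16.8% lower, and no gene of the 8 reached 4-fold, which 1.11% of named genes did upward and 6.31% downward. The differences, day 3 minus day 1, were 1.35 for Bmp4, 1.27 for Tgfb3, 1.17 for Fst and -1.29 for Inhba. They were smaller for Bmp2 (0.54), Bmp6 (0.48), Tgfb2 (0.44) and Tgfb1 (-0.17). The median difference was 0.51 over the 8 genes and -0.04 over all 9800. It was 0.56 over 60 other genes of the pathway, of which 46 were above 0 and 14 below, so the 8 genes were not set apart from these. The median difference was 1.00 over 11 mesenchymal stromal genes, 1.39 over 13 endothelial genes and -5.51 over 12 pan-leukocyte genes. The call for Fst was lost with the peak of the gene distribution set to 0 on each array, where its difference was 0.98. Under that zero point the difference was larger in size for Inhba (-1.48) than for Bmp4 (1.16). If both arrays used 1 unirradiated extract, the control cancels in these differences, and the error of neither irradiated RNA is known.

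The zero point decided the sign of several small ratios. Setting the peak of the distribution to 0 raised all values by 0.19 at day 1 and by 0.0010 at day 3. Setting cytosolic ribosomal protein genes to 0 raised them by 0.51 (55 genes) and 0.52 (56 genes). With ribosomal protein genes at 0, Tgfb2, Bmp2, Bmp4 and Bmp6 turned from below to above 0 at day 1, at 0.10, 0.31, 0.09 and 0.20. Tgfb1 and Inhbb did so at day 3, at 0.39 and 0.11. Under that zero point Bmp4 (1.45), Inhba (1.20) and Tgfb3 (1.13) also passed 2-fold at day 3, so that 4 of 9 genes were higher, against 22.2% of named genes under the same zero point. Inhba at day 1 and Fst at both times were at least 2-fold higher under each of the zero points tried, with Inhba between 1.96 and 2.48 and Fst between 1.27 and 1.79 at day 1 and between 2.45 and 2.97 at day 3.

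**Figure D3:**
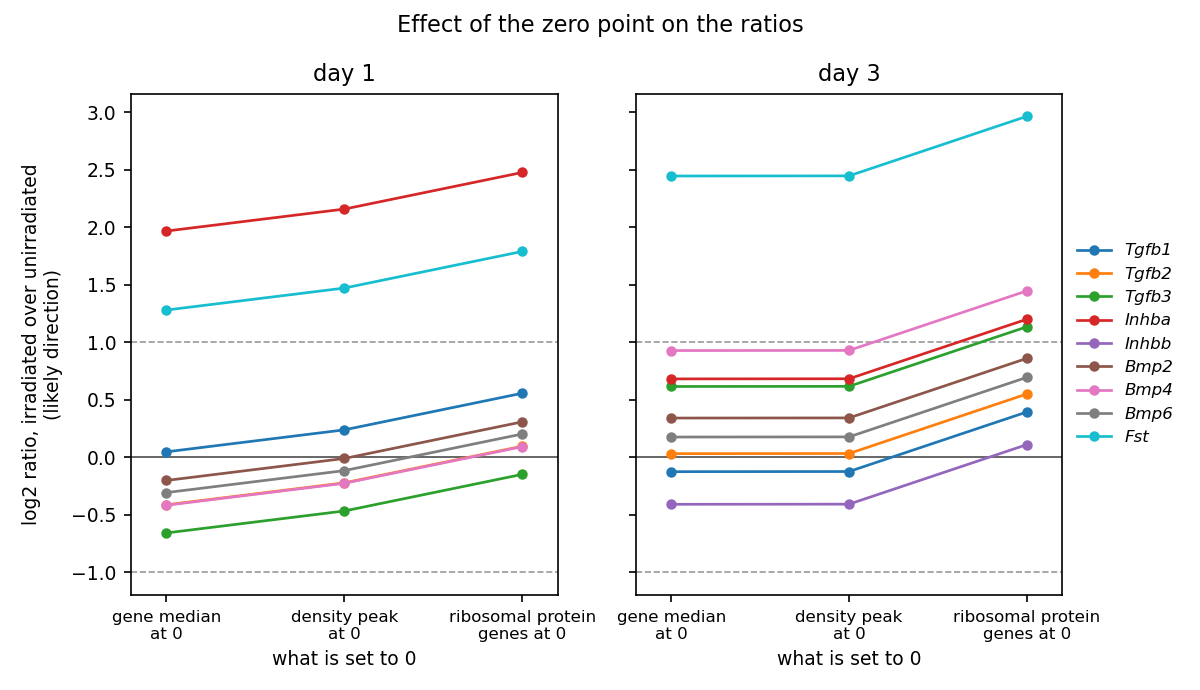
Log2 ratio of irradiated over unirradiated RNA (vertical axis, likely direction) for each gene at day 1, left, and day 3, right, with the zero point on the horizontal axis; dashed lines mark 2-fold. All lines move in parallel, and at day 3 Bmp4, Inhba and Tgfb3 cross the upper dashed line with ribosomal protein genes at 0.

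Around the ligands, 95 further genes of the pathway were followed by role. Of these, 86 were named on the array, and 60 had a ratio at day 1, with 9 at least 2-fold higher and 11 lower and a median of -0.34, where 19.6% of all named genes were higher and 11.1% lower. At day 3, 69 had a ratio, with 12 higher and 5 lower and a median of 0.22, against 7.35% and 6.85% of named genes. With ribosomal protein genes at 0, 14 were higher and 4 lower at day 1, where the median turned to 0.17 and 31.8% of named genes were higher and 3.57% lower. At day 3, 27 were then higher and 1 lower, against 22.2% and 2.53%. Of the genes named below, that zero point brought within 2-fold Amhr2 and Col1a1 at both times, Nbl1, Smad5, Smad6 and Postn at day 1, and Bmp3 and Furin at day 3; the distribution peak at 0 did so for Amhr2, Nbl1, Smad6, Col1a1 and Postn at day 1 and took Id4 past 2-fold there. Ribosomal protein genes at 0 took past 2-fold Gdf9, Smad2 and Id4 at day 1 and Tgfbr2, Acvr1, Acvr2a, Fstl1, Nrros, Skil, Smad6, Smad7, Msx1, Id1 and Postn at day 3, and Postn passed it there with the deposited zero point too. The other ligands of the family were sparsely measured, with a ratio for 9 of 21 at day 1 and 14 of 21 at day 3. Among those, Bmp3, which counteracts osteogenic BMPs, was lower at both times (-1.61 at day 1 and -1.24 at day 3), and Gdf9 was at 0.59 and 1.20. Gdf5, a joint and skeletal ligand (1.06), and the muscle growth inhibitor Mstn (-0.87) had ratios at day 3 only.

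Over 8 receptors the median was -0.04 at day 1, or 0.47 with ribosomal protein genes at 0, and 0.90 at day 3. At day 1, 2 were at least 2-fold higher and 1 lower, where 19.6% of named genes were higher and 11.1% lower. At day 3, 3 were higher and 1 lower, against 7.35% and 6.85%. The endothelial co-receptor Eng was at 1.24 at day 1 and 1.79 at day 3, and the endothelial type I receptor Acvrl1 at 1.89 and 1.09. Both take part in BMP signalling in vessels. The endothelial markers given above had medians of 0.35 at day 1 and 1.57 at day 3, and their part in these ratios was not tested. Tgfbr3, a co-receptor for TGF-beta, was at -0.12 and 1.62. Tgfbr2, the type II receptor for TGF-beta, was at -0.09 and 0.49. Among the other activin and BMP receptors with a ratio, all within 2-fold, Acvr2a was at 0.02 and 0.97, Acvr1 at 0.06 and 0.82 and Bmpr1a at -0.66 and 0.08. Amhr2, the receptor for anti-Mullerian hormone, was lower at -1.12 and -1.13. Tgfbr1, Acvr1b, Acvr1c, Acvr2b and Bmpr1b had no ratio.

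**Figure D4:**
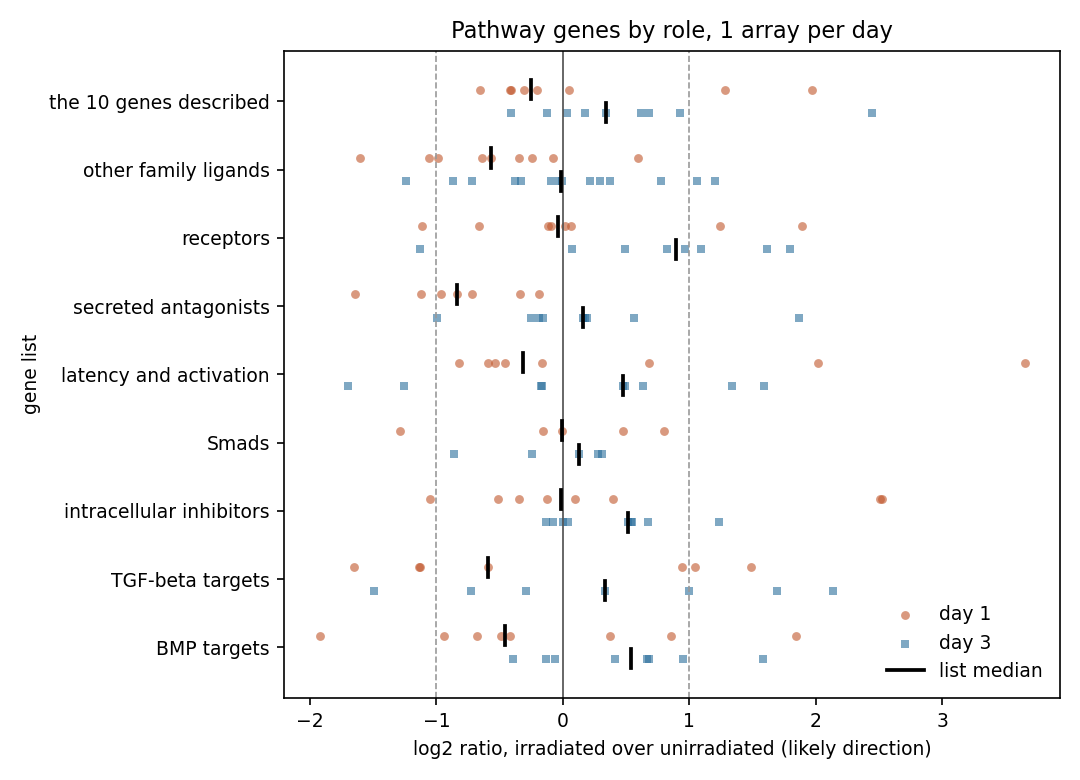
Log2 ratio of irradiated over unirradiated RNA (horizontal axis, likely direction) for the 10 genes and for 8 lists of pathway genes (vertical axis), with circles for day 1, squares for day 3 and a black bar at each list median. The secreted antagonists lie between -1.64 and -0.18 at day 1, while Fst, plotted with the 10 genes, lies at 1.28.

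The other secreted antagonists, which share the role of Fst outside the cell, lay below it on both arrays. Their median was -0.84 at day 1, where 2 of 7 were lower by the 2-fold rule and none higher, against 11.1% and 19.6% of named genes. It was 0.16 at day 3, where 1 of 9 was higher and none lower, against 7.35% and 6.85%. The day 1 median stayed below 0 with ribosomal protein genes at 0, at -0.33. Nog, a BMP trap, was at -1.64 at day 1 and -0.99 at day 3, and Nbl1 at -1.12 and -0.25. The follistatin relative Fstl3, which also binds activin, was at -0.18 and 0.19, and Fstl1 at -0.34 and 0.57. Sostdc1, an antagonist of BMP and Wnt signalling, was at 1.87 at day 3 and had no ratio at day 1.

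Of the genes that store or release latent TGF-beta, 2 of 8 were past 2-fold upward and none downward at day 1, where 19.6% and 11.1% of named genes were. At day 3, 2 of 9 were past it upward and 2 downward, against 7.35% and 6.85%. Nrros, which holds latent TGF-beta1 on myeloid cells, was at 3.65 at day 1 and 0.64 at day 3. Macrophage genes had a median of 4.02 at day 1 (7 of 11 past 2-fold upward, none downward, range -0.43 to 6.17). Their median at day 3 was 0.81 (4 of 9 upward, none downward, range -0.20 to 1.49). The part of these cells in the Nrros ratios was not tested. Thbs1, thrombospondin, which can activate latent TGF-beta, was at 2.02 and 1.34. Furin, the protease that cleaves the ligand precursors, was at -0.46 and -1.26. Of the latent TGF-beta binding proteins, Ltbp2 was at -0.17 and 1.59, and Ltbp3 was at -1.70 at day 3, with no ratio at day 1.

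Of the receptor-activated Smads and Smad4, 5 of 6 had a ratio, all but Smad9. They were within 2-fold except Smad5, a BMP-activated Smad, at -1.29 at day 1 and -0.86 at day 3. That made 1 of 5 lower at day 1, where 11.1% of named genes were lower. Smad2, activated by TGF-beta and activin, was at 0.80 and 0.31, the shared partner Smad4 at 0.47 and 0.13, and Smad3 at -0.01 and -0.25. Of the intracellular inhibitors, 2 of 8 were at least 2-fold higher and 1 lower at day 1, where 19.6% and 11.1% of named genes were. At day 3, 1 of 9 was higher and none lower, against 7.35% and 6.85%. Among these inhibitors, the Smad corepressors Skil (2.52 at day 1 and 0.55 at day 3) and Tgif1 (2.51 and 1.24) were the highest at day 1. Smad6, which dampens BMP signalling, was at -1.05 and 0.54, Smad7, which dampens TGF-beta signalling, at 0.09 and 0.67, and Pmepa1 at -0.51 and -0.08.

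Genes known to respond to the ligands went in several directions. Of 7 TGF-beta targets, 2 were at least 2-fold higher and 3 lower at day 1, where 19.6% and 11.1% of named genes were. At day 3, 2 were higher and 1 lower, against 7.35% and 6.85%. The smooth muscle genes Tagln (1.49 at day 1 and 2.14 at day 3) and Acta2 (1.04 and 1.70) were higher at both times, and the collagen gene Col1a1 (-1.14 and -1.50) was lower at both. Timp1, an inhibitor of matrix metalloproteinases, was at -1.65 and -0.73, Ccn2, a matricellular protein, at -0.59 and 0.33, and Postn, another matricellular protein, at -1.13 and 0.99. Of 8 BMP targets, 1 was higher and 1 lower at day 1 and 1 was higher at day 3, beside the same shares. The inhibitors of differentiation Id1 (0.37 and 0.66), Id2 (-0.49 and -0.13) and Id3 (-0.68 and 0.41) were within 2-fold, and Id4 was at 0.85 and 1.58. The homeobox genes Msx1 (-1.92 and 0.68) and Msx2 (1.84 and -0.39) were past 2-fold at day 1 alone.

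Markers of cells that a marrow preparation can hold differed widely in their ratios. The median of granulocyte genes was 5.86, all 15 of 15 were past 2-fold upward, with a range of 4.07 to 7.97, and the highest, Csf3r, had no ratio at day 3. At day 3 their median was -1.03, with 1 of 12 higher and 6 lower. Erythroid genes had medians of -2.80 over 9 genes and -1.60 over 11. Mesenchymal stromal genes, the labelled cell type, had a median of -0.19 over 13 of 15 genes at day 1, with 3 higher and 3 lower. At day 3 it was 0.68 over 12 of 15, with 4 higher and none lower. Eng, given above as a receptor, is also in this list. Adipocyte genes had medians of 0.18 over 9 (3 higher and 2 lower) and 1.10 over 11 (7 higher and none lower). Among all named genes, 19.6% were higher and 11.1% lower at day 1, and 7.35% and 6.85% at day 3. Ratios give no level, so the label could not be set against the abundance of its markers. How far such markers contribute to the Inhba and Fst ratios was not tested.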

How the data were processed

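RNA was amplified as amino allyl RNA and dye-coupled, per the labels' protocols. The authors deposited 1 log ratio per probe, read as log2, for 23473 probes; scanner, background correction, normalisation and the filter behind empty entries are not given in the sources used here. Signal over background is unknown, and precision is limited by having 1 array per time. Each of 16631 probes had 1 symbol, updated for 3947 through RefSeq genes (GRCm38.p6). Probes were averaged per gene and each array's gene median (-0.0119 at day 1, 0.0162 at day 3) subtracted (Python 3.11.15, pandas 2.3.3). The size rule was run on simulated data with planted ratios far past 2-fold, which checks the code and says nothing of these arrays. The pooled SD between probes of a gene was 0.76 (85 genes) at day 1 and 0.58 (116 genes) at day 3, and leaves out mice and hybridisations.

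The 10 genes and the lists were chosen with earlier results of these data known. Named were the 10 genes, the 2 highest and 2 lowest of each pathway list (mean over arrays with a ratio), a fixed set of receptors, Smads and targets (no probe was named here for Bmpr2), and the 3 genes nearest to the gene of largest root mean square ratio. Inha, Fstl3, Tgfbr3, Ltbp2 and Postn were added after their values were seen. B lineage markers (median -0.0045 at day 1 and -1.60 at day 3, over 4 genes each) and T and NK markers (1.12 over 4, 0.34 over 5) bore on no result. Alternatives were 3 other zero points, the probe of largest size, symbols as given, 1.5-fold and 4-fold rules, genes on both arrays, and the mean.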

Additional observations from a re-analysis of the deposited data

Results flagged for a closer look

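Among the 10 genes, 2 had opposite signs at day 1 and day 3 with a difference of at least 2-fold, which was not tested, since each time has 1 array: day 3 minus day 1 was 1.27 for Tgfb3 and 1.35 for Bmp4. In both, the day 1 value was below 0 and the day 3 value above. The Bmp4 sign at day 1 turned with ribosomal protein genes at 0. Of the 8 genes with both ratios, 6 had opposite signs, against 36.3% of the 9800 named genes with both ratios. With ribosomal protein genes at 0, Tgfb1, Tgfb2, Bmp2, Bmp4 and Bmp6 were above 0 at both times. Tgfb3 alone then kept opposite signs, at -0.15 at day 1 and 1.13 at day 3. The share of named genes under that zero point was not worked out. Of those 9800, 12.1% were at least 2-fold higher at day 3 than at day 1 and 16.8% lower. The share that met both conditions at once was not worked out.

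Among the named pathway genes the same held for Smad6 (1.59), Msx1 (2.61), Msx2 (-2.24), Id3 (1.09), Inha (1.02), Tgfbr3 (1.73), Ltbp2 (1.76) and Postn (2.13). With the peak of the distribution at 0, the differences of Id3 (0.90) and Inha (0.83) were under 2-fold. The day 1 signs of Inha, Tgfbr3 and Ltbp2 turned with ribosomal protein genes at 0, and those of Tgfbr3 and Ltbp2 also with the distribution peak at 0. Msx2 alone of these named genes was lower at day 3 than at day 1, and its day 3 sign turned with ribosomal protein genes at 0. The list covers only named genes, and Inha, Tgfbr3, Ltbp2 and Postn were named after their values were seen. Pathway genes not named above also met the rule: Tgfbi (-1.24), which was likewise lower at day 3, Hey1 (1.89) and Ltbp1 (1.08).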

How the results depend on the processing

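The ratios of the 10 genes moved by less than the spread between probes of a gene (SD 0.76 at day 1, 0.58 at day 3) under each zero point, probe choice and symbol choice. That was fixed in advance and says nothing of precision. Each gene had 1 probe, and a zero point moved all genes alike, by up to 0.51 at day 1 and 0.52 at day 3. With ribosomal protein genes at 0, 4 of 8 signs changed at day 1, and 2 signs and 3 calls of 9 genes changed at day 3. Counts depended on the rule. At day 1 no gene was at least 4-fold higher (0 genes, against 2 at 2-fold), and 1 was at least 1.5-fold lower (against 0). Inhba was just under 4-fold at day 1. It passed 4-fold with the peak of the distribution at 0 (2.16) and with ribosomal protein genes at 0 (2.48). At day 3, 4 genes were higher with ribosomal protein genes at 0 and also 4 at 1.5-fold (against 1). For day 3 minus day 1, the 4-fold rule gave 0 higher and 0 lower (against 3 and 1 at 2-fold). The T and NK cell median at day 1 turned to -0.50 over genes on both arrays. The median of the 10 genes at day 1 became 0.25 with ribosomal protein genes at 0 and 0.16 as a mean. The median of p53 targets was above that of mitotic genes by 0.68 at day 1 and by 4.21 at day 3. The reading of the sign rests on the p53 targets and not on this difference. At day 1 the mitotic median was itself above 0, at 0.89. The difference kept its sign under the 3 other zero points, which cannot alter a difference of medians within an array. No paired analysis was possible because each time point has 1 array.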
